A study of Mus musculus with 10 samples.

Results

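Arterial BECs, the endothelial cells that line the vessels carrying blood into the skin, were described in 2 droplet libraries of mouse ear skin. A cell was counted as arterial by its RNA. Each droplet barcode had to pass limits on quality (at least 500 detected genes and at most 10% of its UMIs on mitochondrial genes), then a blood endothelial gate (*Flt1* at least 1 UMI, *Prox1* at most 1, *Pdgfrb*, *Kcnj8*, and *Vtn* together at most 1, and *Col1a2* at most 2), and last had to hold at least 3 UMIs of *Gkn3*, *Sema3g*, and *Gja5* together. A UMI is a molecular tag that counts 1 captured RNA molecule. The rule found 448 arterial barcodes, 216 in the IgG library and 232 in the Ang2 Ab library, among 2908 barcodes of the gate, 6401 that passed the quality limits, and 9016 in all. The members were thus chosen by these measured values, and every gene of the same barcodes is read with that in mind. Ratios between arterial and other barcodes are descriptions and were not tested.

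Both libraries came from C57Bl/6j WT mice labelled P1-P21 and male, with cells sorted on CD31. The IgG library was from mice given IgG antibody as the control, and the Ang2 Ab library from mice given an antibody that blocks Ang2 (angiopoietin-2), both at 20 mg/kg every 3 days from P16 to P21. There was 1 library per treatment, and the number of mice behind each was not given in the sources used here. No difference between the treatments therefore has a replicate check, and all intervals given are 95% intervals that cover counting error only. Of the 10 samples in the series, 8 plates of sorted LECs were not used here.

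Labels and data differed in places. The title of the Ang2 Ab library carries the word control, and the treatment label was followed. Despite the label male, RNA of *Xist*, which is made in female cells, was present. In the arterial barcodes of the IgG library, 121 held *Xist* and no Y-linked UMI, 67 held a Y-linked UMI and no *Xist*, 10 held both, and 18 neither. In those of the Ang2 Ab library, the numbers were 89, 107, 11, and 25. The treatments thus differed in their mix of the sexes, and Ang2 Ab values are given for each kind of barcode beside a number of the genes described. The libraries shared 5 barcode sequences, of which 0 were in the gate.

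The libraries held 42337184 (IgG) and 31720670 (Ang2 Ab) UMIs. The arterial barcodes held 2058959 and 2033985 of them, with a median of 8828 and 8134 UMIs and 3113 and 2940 genes per barcode. The other barcodes of the gate held 10341898 and 9538966 UMIs, with a median of 7476 and 6302 per barcode. A deeper barcode reaches 3 UMIs of the rule genes more easily. Mitochondrial RNA was close between the classes, with a median of 3.66% and 3.90% in arterial and 3.74% and 4.04% in other barcodes.

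Arterial identity is set early in vessel growth. VEGF acts upstream of Notch signaling, in which Delta-like and Jagged ligands on 1 cell activate Notch receptors on the next, and the receptor's intracellular part joins the DNA-binding protein RBPJ to switch on *Hey* genes. SOX17 is a transcription factor of arterial endothelium, *Efnb2* encodes the ephrin that marks arteries against veins, and *Gja4* and *Gja5* encode connexins that couple arterial cells electrically. Large arteries and arterioles are wrapped by smooth muscle and elastic fibers, whereas capillaries are built for exchange and carry fatty acid and water transporters. Ang2 is an endothelial ligand of the Tie2 receptor, which is encoded by *Tek*.

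Because Notch genes and *Sox17* are central to arterial identity, the bases before the starts of their genes were searched for the RBPJ core TGGGAA and the SOX core AACAAT on both strands (TTCCCA and ATTGTT in reverse). The RefSeq windows on GRCm38.p6 covered 250 bases before each start, and 51 of 66 rule, leading, arterial identity, and Notch genes had a window. No match was found for *Sox17*, *Hey1*, *Jag1*, or *Dll4*, and genes without a window could not be searched. The RBPJ core also lay before *Lfng*, a gene lower in arterial barcodes, and before *Crip1*, which was less than 2-fold higher. The 3 stretches shown are examples from genes whose values are given below, the Notch target *Hey2*, the kinase gene *Bmx*, and the estrogen receptor gene *Gper1*. Each is read 5′ to 3′ on the gene's strand, with the RBPJ core in capitals.
Hey2 (chr10:30842958-30843017, minus strand): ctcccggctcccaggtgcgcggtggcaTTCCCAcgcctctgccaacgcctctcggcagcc
Bmx (chrX:164258339-164258398, minus strand): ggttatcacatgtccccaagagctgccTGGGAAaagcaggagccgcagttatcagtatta
Gper1 (chr5:139423114-139423173, plus strand): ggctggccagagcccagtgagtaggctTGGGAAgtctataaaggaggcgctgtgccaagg

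The RBPJ core was present in 22.7% of the windows of genes at least 2-fold higher in arterial barcodes (171 of 231 genes had a window), 26.4% of those of genes at least 2-fold lower, 19.9% of those of all genes compared, and 21.6% of all windows. The SOX core was present in 6.07%, 4.07%, 5.18%, and 9.42% in the same order. A match is a run of letters and not a bound site, and the shares of the higher and the lower genes lay on the same side of that of all genes compared for the RBPJ core.

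The rule genes themselves were measured as follows, with levels as CPM, in which the UMIs of a gene are summed over all barcodes of a class and scaled to the same total of UMIs for every class. *Sema3g*, a secreted semaphorin, stood at 843 CPM in IgG and 915 CPM in Ang2 Ab arterial barcodes and at 17.4 and 22.8 CPM in the other barcodes. *Gja5*, which encodes connexin 40, stood at 287 and 312 CPM against 1.93 and 2.41 CPM. *Gkn3*, a gastrokine gene and arterial marker, stood at 229 and 202 CPM against 0.580 and 0.629 CPM. *Sema3g* carried the choice, since it was present in 212 of 216 IgG and 229 of 232 Ang2 Ab members and made up 62.1% and 64.1% of the UMIs of the 3 genes. *Gja5* was present in 127 and 139 members and *Gkn3* in 63 and 59. All 3 genes were present in 55 and 48 members, and *Sema3g* was the sole rule gene in 82 and 85. The median sum was 8 UMIs in both libraries, and the highest was 125 and 81.

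Each rule gene could be read in barcodes that the other 2 had chosen. Among 201 IgG and 217 Ang2 Ab barcodes chosen by *Gkn3* and *Sema3g*, *Gja5* stood at 289 and 308 CPM against 5.06 and 6.02 CPM in the rest of the gate. Among 85 and 90 barcodes chosen by *Gkn3* and *Gja5*, *Sema3g* stood at 1143 and 1235 CPM against 83.7 and 96.0 CPM. Among 215 and 226 barcodes chosen by *Sema3g* and *Gja5*, *Gkn3* stood at 228 and 196 CPM against 0.677 and 2.61 CPM.

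*Sox17*, which the rule did not use, stood at 651 CPM in IgG and 560 CPM in Ang2 Ab arterial barcodes and at 255 and 243 CPM in the others, a ratio of 2.56 (2.39 to 2.73) and 2.30 (2.14 to 2.47). With every barcode thinned to 3000 UMIs, a *Sox17* UMI was present in 79.4% (73.1% to 84.8%, n = 199) of IgG and 70.9% (64.2% to 77.0%, n = 206) of Ang2 Ab arterial barcodes. The share was 45.9% (n = 925) and 43.6% (n = 954) in the other barcodes and 2.55% (n = 1216) and 3.65% (n = 657) in barcodes with at least 2 *Prox1* UMIs, a lymphatic class that should lack the gene. Thinning left out 17 and 26 arterial barcodes, and without it the shares were 94.0% and 87.5% in arterial barcodes. *Sox17* was therefore higher in arterial barcodes but far from absent in other BECs. Of the 4 marker genes given for arterial cells, it was the one not used to choose them, and its values did not go against the label.

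Arterial barcodes were 15.4% (13.5% to 17.4%, 216 of 1405) of the gate in IgG and 15.4% (13.6% to 17.4%, 232 of 1503) in Ang2 Ab. With every barcode thinned to 3000 UMIs before the rule was applied, the shares were 10.4% (8.69% to 12.3%) and 10.1% (8.413% to 11.96%), after 281 and 343 shallower barcodes had been left out. The intervals of the libraries overlapped under both countings. These are shares of CD31-sorted barcodes and not of cells in the skin.

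Of 9077 genes with at least 200 UMIs in the gate, 231 (2.54%) were at least 2-fold higher and 286 (3.15%) at least 2-fold lower in arterial than in other barcodes in both libraries. The median ratio was 1.01 in both. Of the list of arterial identity genes, 19 of 29 compared were at least 2-fold higher and 0 lower, with a median ratio of 2.95 and 2.89. Against them, 0 of 15 capillary genes were higher and 7 lower, and 0 of 16 venous genes were higher and 9 lower. The lists were chosen with earlier results of these data known, and these counts describe the barcodes that the rule selected on values of the same cells.

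**Figure D1:**
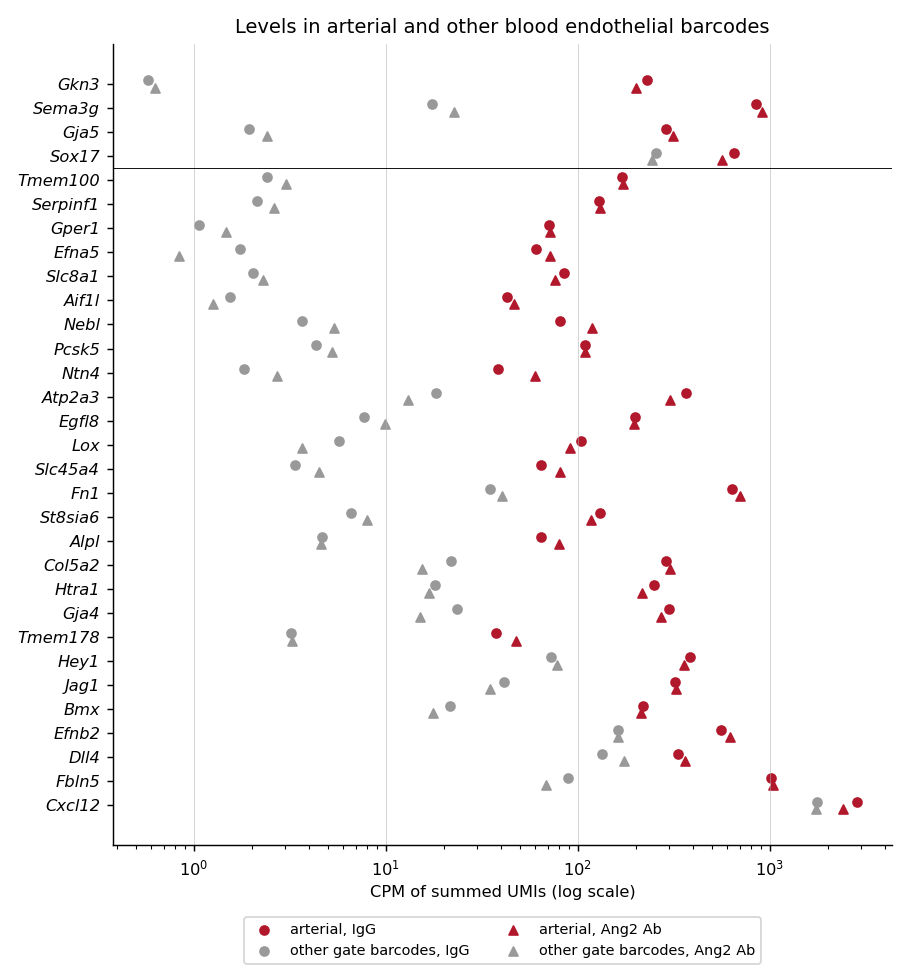
Level of each gene (CPM of summed UMIs, log scale) in arterial (red) and other (gray) barcodes of the blood endothelial gate, with circles for IgG and triangles for Ang2 Ab. Above the line are the rule genes and *Sox17*, below it the 20 genes with the highest ratio and then 7 further arterial and matrix genes, and in each row the 2 red points lie to the right of the 2 gray ones.

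The gene that stood highest among those the rule did not use was *Tmem100*, a transmembrane protein gene downstream of BMP9 and ALK1. It stood at 170 CPM in IgG and 172 CPM in Ang2 Ab arterial barcodes and at 2.42 and 3.04 CPM in the others, a ratio of 70.3 (46.8 to 110) and 56.4 (38.6 to 85.5). *Serpinf1*, which encodes the antiangiogenic protein PEDF, stood at 128 and 131 CPM against 2.13 and 2.62 CPM. *Gper1*, a membrane estrogen receptor gene, stood at 70.4 and 71.8 CPM against 1.06 and 1.47 CPM. *Efna5*, an ephrin gene, stood at 60.2 and 71.3 CPM against 1.74 and 0.839 CPM. In each of these genes, both arterial values lay far above both values of the other barcodes, and the arterial values of the libraries were close to each other.

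The rest of the 20 genes with the highest ratio were at least 11.7-fold higher in both libraries. They held genes of calcium handling, with the sodium-calcium exchanger *Slc8a1* (84.5 and 75.7 CPM) and the calcium pump *Atp2a3* (364 and 303 CPM, a ratio of 20.04 and 23.34). They held matrix genes, with the collagen crosslinker *Lox*, fibronectin (*Fn1*, 637 and 703 CPM against 35.0 and 40.3 CPM), *Col5a2* (289 and 301 CPM against 21.95 and 15.41 CPM), and the secreted protease *Htra1*. They also held *Gja4*, which encodes connexin 37 (298 and 272 CPM against 23.4 and 15.1 CPM), the netrin gene *Ntn4*, the proprotein convertase *Pcsk5*, the phosphatase *Alpl*, and *Aif1l*, *Nebl*, *Egfl8*, *Slc45a4*, *St8sia6*, and *Tmem178*.

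Several of these genes were not limited to arterial barcodes when the *Prox1* barcodes were read beside them. *Fn1* stood at 805 and 1363 CPM there, *Gja4* at 270 and 176 CPM, *Slc8a1* at 84.2 and 86.9 CPM, *Ntn4* at 49.0 and 121 CPM, and *Tmem100* at 30.1 and 41.7 CPM. *Serpinf1* (2.25 and 1.29 CPM), *Aif1l* (1.04 and 1.76 CPM), *Nebl* (1.84 and 1.41 CPM), *Alpl* (0.518 and 0.588 CPM), and *Tmem178* (0.518 and 0.353 CPM) were low in them. *Fbln5*, described below, was present in 58.9% and 56.6% of thinned *Prox1* barcodes against 76.9% and 71.4% of arterial ones.

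Of the Notch pathway genes, 4 of 18 compared were at least 2-fold higher and 1 lower, with a median ratio of 1.37 and 1.19. The 4 were ligands and a target. *Jag1* stood at 321 and 326 CPM against 41.3 and 34.7 CPM (ratio 7.78 and 9.39), *Jag2* at 335 and 333 CPM against 117 and 126 CPM, and *Dll4* at 332 and 361 CPM against 134 and 174 CPM. The target *Hey1* stood at 386 and 356 CPM against 72.8 and 77.5 CPM (ratio 5.30 and 4.59). *Hey2*, whose promoter is printed above, was under the minimum of UMIs in the gate and was not counted; it stood at 26.7 and 25.6 CPM against 1.06 and 0.315 CPM. The receptors showed smaller ratios, with 1.74 and 1.70 for *Notch1* and 2.25 and 1.72 for *Notch4*. *Hes1*, another target gene, had a ratio of 0.779 and 0.845, and *Lfng*, which modifies Notch receptors by adding sugars, was the lower one (0.449 and 0.393).

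Elastic fiber and arterial wall matrix genes were at least 2-fold higher in 5 of 11 cases and lower in 0, with a median ratio of 1.90 and 3.06. The elastin gene *Eln* stood at 3440 and 3511 CPM against 807 and 487 CPM. *Fbln5*, whose product is needed to assemble elastic fibers, stood at 1012 and 1036 CPM against 88.9 and 68.6 CPM (ratio 11.4 and 15.1), and *Fbln2* at 1287 and 1243 CPM against 441 and 386 CPM. *Mgp*, the inhibitor of calcification, stood at 1196 and 1257 CPM against 126 and 92.6 CPM, and *Lox* was the fifth. Members with 3 to 5 UMIs of the rule genes held *Eln* at 777 and 759 CPM and *Mgp* at 74.8 and 326 CPM. Gate barcodes with 0 held 848 and 470 CPM and 133 and 98.8 CPM, and members with 20 or more 8642 and 11907 CPM and 3550 and 4108 CPM. Gate barcodes with at least 3 UMIs of *Selp* and *Ackr1* held *Eln* at 1813 and 1453 CPM and *Mgp* at 379 and 446 CPM.

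The basement membrane genes divided, with 3 of 15 at least 2-fold higher and 2 lower and a median ratio of 0.711 and 0.518. *Lama3* (ratio 4.65 and 4.03), *Col18a1* (3.49 and 3.12), and *Lamb2* (2.43 and 2.19) were higher. *Col15a1* (0.225 and 0.267) and *Nid2* (0.455 and 0.422) were lower. The chains of collagen IV, *Col4a1* (0.565 and 0.468) and *Col4a2* (0.558 and 0.510), missed the 2-fold line in at least 1 library.

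Among connexin and junction genes, 2 of 13 compared were at least 2-fold higher and 0 lower. They were *Gja4* and *Cldn5*, the tight junction claudin of endothelium, which stood at 1710 and 1577 CPM against 360 and 553 CPM. The pan-endothelial genes *Cdh5* (1.02 and 0.937) and *Pecam1* (1.17 and 1.06) had ratios near 1. Among guidance genes, 4 of 17 were higher (*Efnb2*, *Epha4*, *Unc5b*, and *Ntn4*) and 1 lower, *Nrp2* (0.183 and 0.245), a semaphorin and VEGF-C coreceptor known from veins and lymphatics. *Efnb2* stood at 557 and 618 CPM against 162 and 163 CPM, whereas its venous receptor *Ephb4* had a ratio of 1.01 and 0.988.

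BMP and ALK1 pathway genes were higher in 3 of 13 cases and lower in 0. Beside *Tmem100*, these were the inhibitory SMADs *Smad6* (3.15 and 4.24) and *Smad7* (2.45 and 2.36), while the receptor *Acvrl1*, which encodes ALK1, had ratios of 2.07 and 1.90. Of flow response genes, 1 of 10 was higher and 1 lower. The higher one was *Edn1*, the precursor of the vasoconstrictor endothelin-1 (536 and 732 CPM against 182 and 253 CPM), and the lower one was the vasodilator peptide gene *Adm* (0.165 and 0.478). *Klf2* (1.20 and 1.20), *Klf4* (1.39 and 1.32), and *Nos3* (1.66 and 1.53) were under 2-fold. Of potassium and calcium channel genes, 1 of 5 was higher, *Trpv4* (2.84 and 2.79). *Kcnn4*, which encodes the IKCa channel used in endothelial hyperpolarization, fell under the minimum in the gate, with 42.3 and 41.3 CPM against 1.16 and 1.05 CPM.

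In the Tie and angiopoietin list, 1 of 16 genes compared was at least 2-fold higher and 2 were lower. The receptor gene *Tek* stood at 303 and 299 CPM against 203 and 177 CPM (ratio 1.49 and 1.69), and its partner *Tie1* at 371 and 335 CPM against 326 and 321 CPM (1.14 and 1.04). *Ptprb*, the phosphatase that acts on Tie2, stood at 2667 and 2716 CPM against 1554 and 1655 CPM. *Pik3r3*, a PI3K regulatory subunit gene, was the higher gene (3.64 and 2.92). The ligand *Angpt2* was lower, with 11.2 and 34.9 CPM against 75.2 and 132 CPM (0.149 and 0.265), as was *Angptl4* (0.215 and 0.265). Neither *Tek* nor *Tie1* passed 2-fold, the interval of *Tie1* in Ang2 Ab included 1 (0.960 to 1.14), and *Tek* stood at 240 and 273 CPM in gate barcodes with at least 3 UMIs of *Selp* and *Ackr1*.

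Of VEGF receptor, ligand, and tip cell genes, 1 of 17 was at least 2-fold higher and 7 were lower. *Vegfc*, the ligand of VEGFR3, was the higher one, with 229 and 242 CPM against 19.9 and 22.9 CPM (11.5 and 10.6). *Vegfa*, with 194 UMIs in the gate, fell under the minimum and was not counted. It stood at 27.7 and 21.6 CPM against 6.00 and 3.25 CPM (4.62, 3.17 to 6.73, and 6.66, 4.11 to 10.9). The lower ones were *Apln* (0.0415 and 0.271), *Aplnr*, *Nrp2*, *Nid2*, *Plvap*, *Angpt2*, and *Pgf*. *Kdr*, which encodes VEGFR2, had ratios of 0.488 and 0.537.

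**Figure D2:**
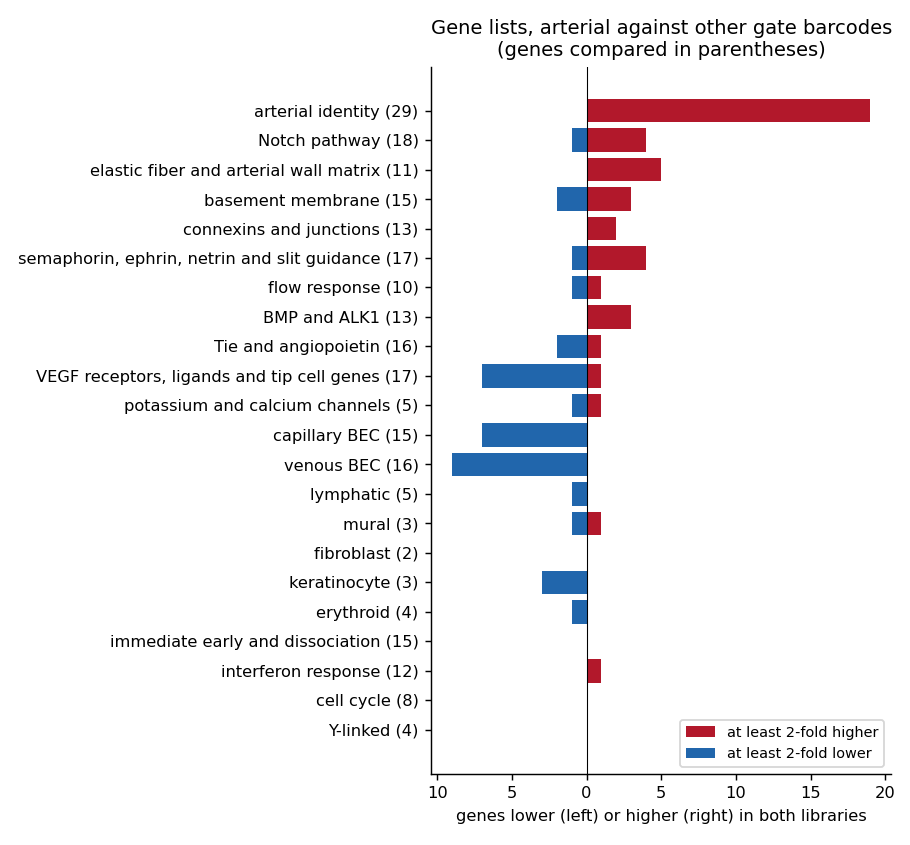
Number of genes of each list that were at least 2-fold higher (red, to the right) or lower (blue, to the left) in arterial than in other gate barcodes in both libraries, with the number of genes compared in parentheses. Arterial identity has the longest bar to the right (19 of 29), and the venous (9 of 16) and capillary (7 of 15) lists have the longest pair of bars that lie to the left alone.

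The capillary genes lower in arterial barcodes were *Aqp1*, the water channel (247 and 451 CPM against 2186 and 2478 CPM), *Car4*, *Fabp5*, *Gpihbp1*, which anchors lipoprotein lipase, *Lpl*, *Cd300lg*, and *Rgcc*. The median ratio of the capillary list was 0.488 and 0.503 and that of the venous list 0.300 and 0.371. Of the venous genes, *Ackr1* stood at 6.31 and 9.34 CPM against 270 and 126 CPM, *Selp* at 11.7 and 8.36 CPM against 326 and 105 CPM, and the venous transcription factor gene *Nr2f2* at 18.5 and 23.6 CPM against 181 and 107 CPM. *Vwf* had ratios of 0.812 and 1.15.

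Among the 10 genes with the lowest ratio, *Lrg1* (31.1 and 14.3 CPM against 571 and 281 CPM) and *Sele*, which encodes E-selectin, were concentrated in gate barcodes with at least 3 UMIs of *Selp* and *Ackr1* (1845 and 541 CPM in IgG). *Lgals7*, *Ly6d*, *Perp*, *Dmkn*, *Krt14*, and *Krt15* are genes of keratinocytes, and *Anxa8* and the chemokine gene *Cxcl9* were the other two. Each of the 10 held at most 64 UMIs in the arterial barcodes of a library. In the Ang2 Ab barcodes with Y-linked RNA alone, 5 of the keratinocyte genes gave no direction, since *Perp*, *Krt14*, and *Krt15* had 0 arterial UMIs and the intervals of *Lgals7* (0.404 to 4.03) and *Dmkn* (0.0383 to 43.3) included 1.

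Markers of other cell types were read in the same barcodes. Of keratinocyte genes, 0 of 3 compared were higher and 3 lower. Of the lymphatic list, 0 of 5 were higher and 1 was lower (*Lyve1*), with *Flt4* at 52.5 and 46.2 CPM and *Ccl21a* at 69.0 and 25.1 CPM. Of mural genes, 1 of 3 was higher, *Acta2*, and 1 lower, *Tagln*, and the list summed to 238 and 416 CPM in arterial and 610 and 614 CPM in other barcodes. Among the mural genes not used by the gate, *Rgs5* stood at 89.8 and 118 CPM against 209 and 209 CPM in other barcodes, and *Cnn1* was at 0. *Myh11*, under the minimum for the count, stood at 5.34 and 9.83 CPM against 2.22 and 2.31 CPM (ratio 2.40, 1.06 to 5.13, and 4.26, 2.21 to 8.19), on the same side as *Acta2*. Of fibroblast genes, 0 of 2 passed either line, with a sum of 95.2 and 55.6 CPM. *Ptprc*, *Lyz2*, *C1qa*, and *Cd3e* were at 0 in the arterial barcodes, where a count of 0 allows up to 3 UMIs per library. The leukocyte list summed to 6.80 and 5.90 CPM, the keratinocyte list to 20.4 and 12.3 CPM, and the Schwann list to 10.7 and 3.93 CPM, and no leukocyte or Schwann gene had enough UMIs to be compared.

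Immediate early and dissociation genes were higher in 0 and lower in 0 of 15 cases, with a median ratio of 0.959 and 0.960. Of interferon response genes, 1 of 12 was higher, *Ifi27l2a* (6.62 and 4.93), and the median was 1.41 and 1.44. Of cell cycle genes, 0 of 8 were higher or lower in both libraries. Of the erythroid genes, 0 of 4 were higher and 1 was lower, and of the Y-linked genes 0 of 4 passed either line.

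Arterial barcodes were not all alike. At the edge of the rule, barcodes with exactly 2 rule UMIs (43 and 58), just outside, held *Sox17* at 595 and 497 CPM, *Fbln5* at 179 and 163 CPM, and *Aqp1* at 1369 and 1094 CPM. Barcodes with exactly 3 (33 and 31), just inside, held them at 711 and 537 CPM, 367 and 394 CPM, and 593 and 838 CPM. From 3 to 5 rule UMIs (69 and 90 barcodes), over 6 to 19 (104 and 100), to 20 or more (43 and 42), *Eln* went from 777 to 2346 to 8642 CPM in IgG and from 759 to 1514 to 11907 CPM in Ang2 Ab. *Bmx*, a Tec family kinase gene of arterial endothelium, went from 102 to 174 to 438 CPM and from 140 to 156 to 445 CPM, and *Jag1* from 126 to 327 to 537 CPM and from 167 to 307 to 596 CPM.

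Capillary genes ran the other way. *Rgcc* went from 486 to 282 to 55.5 CPM in IgG and from 356 to 201 to 32.1 CPM in Ang2 Ab, and *Gpihbp1* from 872 to 597 to 171 CPM and from 935 to 720 to 87.2 CPM. *Sox17* did not follow either course, with 634, 725, and 530 CPM in IgG and 555, 586, and 509 CPM in Ang2 Ab. Median depth also moved with the rule UMIs, from 7770 to 8225 to 10710 UMIs per barcode in IgG and from 6242 to 8596 to 9837 in Ang2 Ab, and its part in these values was not tested.

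**Figure D3:**
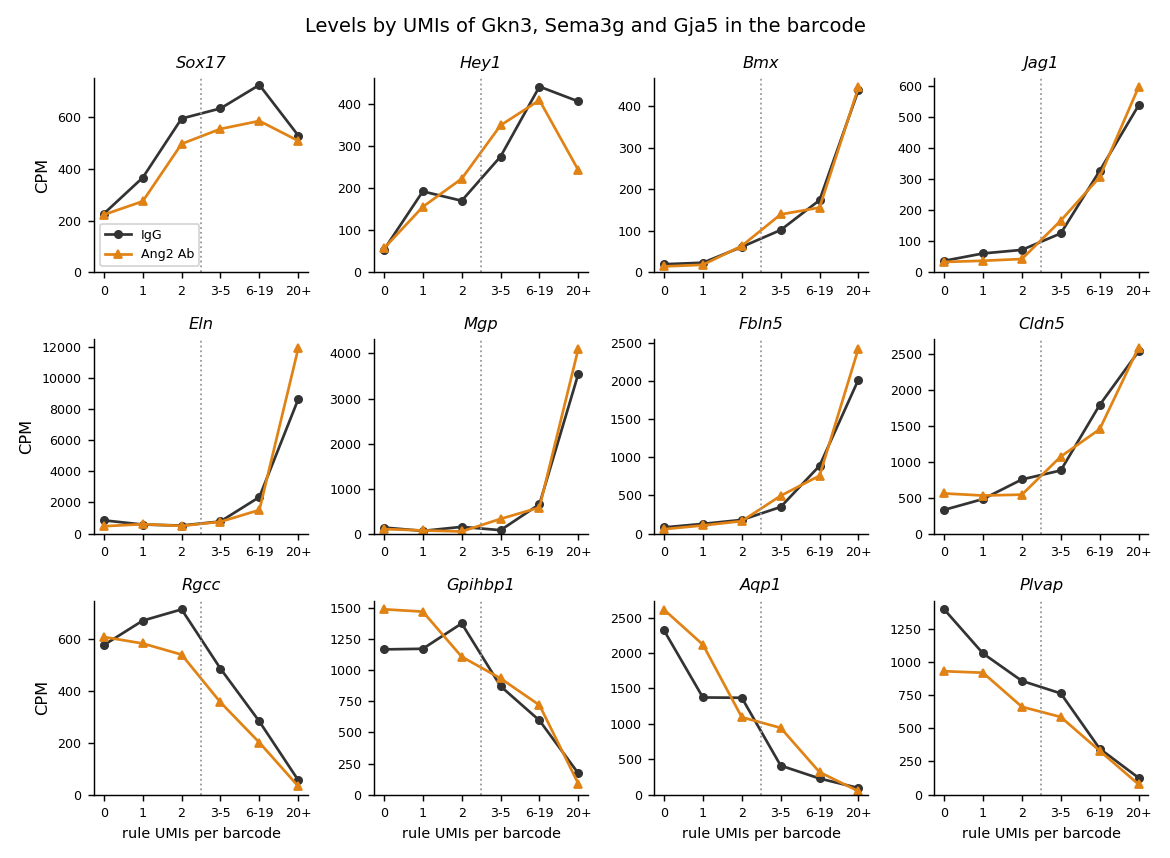
Level (CPM, linear axes that start at 0) of 12 genes in gate barcodes grouped by their UMIs of *Gkn3*, *Sema3g*, and *Gja5*, with IgG in black and Ang2 Ab in orange; barcodes to the right of the dotted line are arterial by the rule. *Bmx*, *Jag1*, *Eln*, *Mgp*, *Fbln5*, and *Cldn5* were highest at 20 or more UMIs in both libraries, *Rgcc*, *Gpihbp1*, *Aqp1*, and *Plvap* lowest, and *Sox17* and *Hey1* peaked at 6 to 19.

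The members were also split by *Gkn3*, a gene of the rule. Members with at least 2 *Gkn3* UMIs (49 IgG and 43 Ang2 Ab) were set beside members with 0 (153 and 173), with a median of 9528 and 8183 UMIs against 8763 and 7854. Of 5902 genes with at least 100 UMIs in arterial barcodes, 118 were at least 2-fold higher and 164 at least 2-fold lower in both libraries. This split was chosen after the data were seen and is a description.

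Among the genes higher with *Gkn3*, *Mgp* stood at 3583 and 4740 CPM against 168 and 277 CPM (ratio 21.4 and 17.2). *Eln* stood at 8182 and 11604 CPM against 1460 and 1268 CPM (5.60 and 9.15), and *Bgn*, which encodes the proteoglycan biglycan, at 541 and 768 CPM against 45.6 and 49.6 CPM. The Notch target *Hey2* stood at 74.5 and 93.3 CPM against 4.77 and 5.29 CPM, and *Dkk2*, a modulator of Wnt signaling, at 120 and 121 CPM against 4.77 and 3.97 CPM. *Gucy1a1*, a subunit gene of the nitric oxide receptor (11.2 and 32.4), *F2rl1*, which encodes protease-activated receptor 2 (12.2 and 19.9), *Sulf1* (12.04 and 11.87), *Bmp4* (10.0 and 6.88), and *Bmp6* (14.1 and 9.68) were also higher.

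Other genes were higher in the members without *Gkn3*, which met the same arterial rule. *Col4a1* stood at 2225 and 2257 CPM against 302 and 211 CPM with *Gkn3*, *Gpihbp1* at 768 and 812 CPM against 84.9 and 46.6 CPM, and *Rbp7*, a retinol-binding protein gene, at 627 and 318 CPM against 43.5 and 27.4 CPM. *Cxcl12*, the ligand of CXCR4 and a gene of the arterial identity list, stood at 3737 and 2994 CPM against 582 and 466 CPM. It was thus lower with *Gkn3* in both libraries (ratio 0.156 and 0.156). *Esm1*, *Btnl9*, *Nrp2*, *Col15a1*, *Nes*, *Cd300lg*, and *Rgcc* were lower with *Gkn3* as well.

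Arterial genes that the rule did not use were present on both sides. *Sox17* stood at 697 and 584 CPM without and 509 and 546 CPM with *Gkn3*. *Dll4* stood at 282 and 328 CPM without and 431 and 510 CPM with it. *Sema3g*, a rule gene, stood at 702 and 766 CPM without and 1137 and 1437 CPM with *Gkn3*. Members without *Gkn3* met the rule through *Sema3g* and *Gja5*, so the presence of *Sema3g* in them follows from the rule. For *Hey1* the libraries pointed opposite ways (ratio 1.34 and 0.620).

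**Figure D4:**
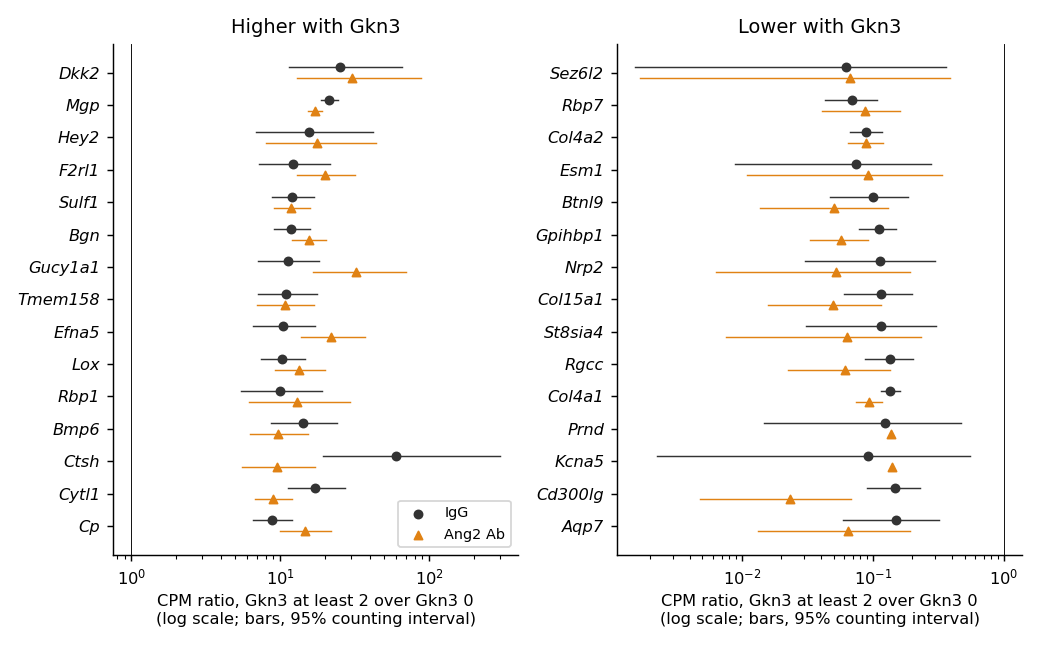
CPM ratio (log scale) of arterial barcodes with at least 2 *Gkn3* UMIs to arterial barcodes with 0, for the 15 genes highest (left) and the 15 lowest (right) by this ratio, with IgG as circles, Ang2 Ab as triangles, and bars for the 95% counting interval. A triangle with no bar is a gene with 0 UMIs in 1 class, set at the floor of 3 counts. The points of both libraries lie on the same side of 1 in every row.

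The second comparison set Ang2 Ab against IgG within arterial barcodes, to ask how blocking Ang2 in young mice related to the RNA of their arterial endothelium. Of 6005 genes with at least 100 UMIs in the arterial barcodes of both libraries together, 14 (0.233%) were at least 2-fold higher and 10 (0.167%) at least 2-fold lower with Ang2 Ab, and 97.1% lay between 0.67 and 1.5. Over the same genes, 9 were at least 2-fold higher and 19 at least 2-fold lower with Ang2 Ab in the other gate barcodes. The median ratio was 1.01 in both classes.

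Of 30 arterial identity genes, 0 were at least 2-fold higher and 0 lower, with a median ratio of 1.02, beside 1.00 in the other barcodes. *Jag1* stood at 321 CPM in IgG and 326 CPM in Ang2 Ab (1.02, 0.910 to 1.13), and *Eln* at 3440 and 3511 CPM (1.02, 0.987 to 1.06). *Sox17* stood at 651 and 560 CPM (0.860, 0.794 to 0.931). Both receptor genes differed by less than counting error, with *Tek* at 303 and 299 CPM (0.988, 0.882 to 1.11) and *Tie1* at 371 and 335 CPM (0.904, 0.814 to 1.00). Of the Notch, elastic fiber, basement membrane, connexin and junction, guidance, flow response, BMP, Tie, capillary, venous, fibroblast, immediate early, and interferon lists, 0 of the genes with at least 100 arterial UMIs passed 2-fold in either direction. Genes under that minimum are outside these counts, among them *Angpt2* and *Adm*, described below, and 2 venous genes, *Lrg1* (64 and 29 UMIs, a ratio of 0.459, 0.285 to 0.722) and *Sele* (20 and 1 UMIs). In the VEGF and tip cell list 1 of 15 compared was higher (*Apln*), and in the channel list 1 of 5 (*Kcna5*). The elastic fiber list had a median ratio of 1.02 in arterial barcodes but 0.723 in the others, where *Eln* stood at 807 and 487 CPM (0.603, 0.582 to 0.625). The make-up of the other barcodes also differed, since those with at least 3 UMIs of *Selp* and *Ackr1*, in which *Eln* stood at 1813 and 1453 CPM, were 15.5% (218 of 1405) of the gate in IgG and 9.38% (141 of 1503) in Ang2 Ab, and their part in the lower value was not tested.

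The gene with the largest ratio was *Apln*, which encodes the peptide apelin and is known as a tip cell gene. It had 16 UMIs (7.77 CPM) in IgG and 223 UMIs (110 CPM) in Ang2 Ab arterial barcodes, a ratio of 14.1 (8.50 to 25.1), and 187 and 405 CPM in the other barcodes, a ratio of 2.16 (2.05 to 2.29). The UMIs were concentrated, since 12 IgG and 31 Ang2 Ab members held any and 5 members held 85.2% of those with Ang2 Ab. With the highest barcode of each library left out the ratio was 10.1 (5.849 to 19.03). It was 29.0 (14.4 to 68.2) in barcodes with *Xist* and 5.47 (2.15 to 17.8) in barcodes with Y-linked RNA. *Apln* thus lay higher with Ang2 Ab in each subset, in a few barcodes.

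*Angpt2* itself had too few UMIs for the count of genes. It had 23 UMIs (11.2 CPM) in IgG and 71 UMIs (34.9 CPM) in Ang2 Ab arterial barcodes, a ratio of 3.12 (1.93 to 5.24), and 75.2 and 132 CPM in the other barcodes, a ratio of 1.75. It was present in 16 of 216 and 37 of 232 members, and with barcodes thinned to 3000 UMIs in 4.02% (1.75% to 7.77%) and 7.28% (4.13% to 11.7%). The thinned share was 24.3% and 68.9% in *Prox1* barcodes, and the part of free RNA in the arterial values was not tested. The ratio was 2.01 in *Xist* and 4.73 in Y-linked barcodes.

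*Adm*, the adrenomedullin gene, also under the minimum, had 11 and 58 UMIs (5.34 and 28.5 CPM), a ratio of 5.34 (2.77 to 11.3) beside 1.84 in the other barcodes. These UMIs lay in 6 IgG and 25 Ang2 Ab members. *Ccn2*, a matricellular protein gene, had 107 and 314 UMIs (52.0 and 154 CPM), a ratio of 2.97 (2.38 to 3.74), beside 1.95 (1.83 to 2.08) in the other barcodes. *Prnd* had 52 and 142 UMIs, a ratio of 2.76 (2.00 to 3.88) beside 2.35, but 0.740 (0.422 to 1.30) in Y-linked and 11.5 (5.76 to 26.2) in *Xist* barcodes. Its UMIs lay in 15 IgG and 23 Ang2 Ab members, and 5 members of each library held 80.8% and 78.2% of them. *Kcna5*, a potassium channel gene, had 35 and 92 UMIs, a ratio of 2.66 (1.78 to 4.05) beside 1.47, and *Aqp1* had 508 and 918 UMIs, a ratio of 1.83 (1.64 to 2.04) beside 1.13. In *Xist* and in Y-linked barcodes, the ratio was 8.18 and 2.81 for *Ccn2*, 1.98 and 5.30 for *Kcna5*, and 1.21 (1.02 to 1.43) and 2.30 (1.93 to 2.76) for *Aqp1*. By rule UMIs, *Aqp1* stood at 410 CPM in IgG and 943 CPM in Ang2 Ab members with 3 to 5 (69 and 90 barcodes). It stood at 228 and 317 CPM at 6 to 19, and went the other way at 20 or more, with 93.2 and 48.2 CPM. Each of these genes except *Ccn2*, *Prnd*, and *Adm* was below 1.5-fold in the other barcodes, and in all 5 the direction was the same there. Of the 14 higher genes, *Dapk2*, *Fkbp10*, *Txndc5*, *Enpp2*, and *Tspan6* were the ones not described here, as were *Gde1*, *H2afx*, *Rps27rt*, and *Rpl9-ps6* of the 10 lower.

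*H19*, an imprinted noncoding RNA, had 29 and 117 UMIs, a ratio of 4.08 (2.70 to 6.36) beside 0.997 in the other barcodes, with 5 barcodes holding 65.0% of the Ang2 Ab UMIs. The *H19* ratio was 8.64 (4.982 to 16.04) in *Xist* barcodes and 1.48 (0.631 to 3.74) in Y-linked barcodes, where the interval included 1. *Acta2*, which encodes smooth muscle actin, had 65 and 213 UMIs, a ratio of 3.32 (2.50 to 4.45) beside 1.58. Its highest barcode held 91 of the 213, and without the highest barcode of each library the ratio was 2.42 (1.73 to 3.42). *Tagln*, another smooth muscle gene, stood at 91.8 and 167 CPM and *Myh11* at 5.34 and 9.83 CPM, whereas *Pdgfrb* stood at 5.83 and 2.46 CPM and *Kcnj8* at 2.91 and 0 CPM, and the gate limits these last 2. The mural list summed to 238 and 416 CPM, with 1 of its 3 compared genes higher and *Tagln* the most abundant, and the part of mural RNA in these values was not tested.

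Hemoglobin genes had large ratios with most UMIs in 1 barcode. *Hbb-bs* had 423 and 2567 UMIs (ratio 6.14), of which 2376 were in 1 Ang2 Ab barcode. Without the highest barcode of each library, the ratio was 0.662 for *Hbb-bs*, 0.756 for *Hba-a1*, and 0.695 for *Hba-a2*. Of the erythroid list, 3 of 4 genes were counted as higher, and each of the 3 was below 1 without it.

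On the other side, *Hist1h2ae* (109 and 11 UMIs, ratio 0.102) and *Hist1h2ap* (146 and 25 UMIs, ratio 0.173) are histone genes of dividing cells, and 1 IgG barcode held 95.4% and 95.2% of their IgG UMIs. *Top2a* (76 and 34 UMIs) had 81.6% and *Stmn1* (203 and 92 UMIs) 60.1% of the IgG UMIs in 1 barcode. Without the highest barcode of each library, the ratio was 1.61 (0.466 to 6.28) for *Hist1h2ae* and 1.44 (0.496 to 4.46) for *Hist1h2ap*. It was 0.577 (0.210 to 1.47) for *Top2a* and 1.03 (0.7525 to 1.42) for *Stmn1*, and the interval of each of these genes included 1. *Mki67* UMIs were present in 6 IgG and 4 Ang2 Ab members. Of the cell cycle list, 1 of 2 genes compared was lower with Ang2 Ab. *Stmn1*, which is not limited to dividing cells, was present in 45 and 53 members.

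Of 5 further genes named for a low upper bound, *Dusp2* alone was past 2-fold. *Icam1*, the leukocyte adhesion gene, had 514 and 260 UMIs (250 and 128 CPM), a ratio of 0.512 (0.439 to 0.596) beside 0.682 (0.649 to 0.718) in the other barcodes. Among the latter, those with at least 3 UMIs of *Selp* and *Ackr1* held it at 833 and 703 CPM and were a smaller share with Ang2 Ab. The part of this make-up in the ratios of the other barcodes was not tested for any gene. *Rbp7* had 955 and 521 UMIs (464 and 256 CPM), a ratio of 0.552 (0.495 to 0.615) beside 0.695. *Rnd1* had 438 and 246 UMIs, a ratio of 0.569 (0.484 to 0.666) beside 0.777, and *Rgs16*, a regulator of G protein signaling, 194 and 99 UMIs, a ratio of 0.517 (0.401 to 0.661) beside 0.659. *Dusp2*, a phosphatase gene of MAP kinases, had 92 and 25 UMIs, a ratio of 0.275 (0.169 to 0.432) beside 0.492. Each was below 1 in *Xist* and in Y-linked barcodes, with 0.706 and 0.412 for *Icam1* and 0.674 and 0.452 for *Rbp7*. For *Dusp2* it was 0.147 and 0.696, and the interval in Y-linked barcodes included 1 (0.329 to 1.46). It was present in 30 IgG and 16 Ang2 Ab members, and 5 members held 65.2% of its IgG UMIs, whereas *Icam1* was present in 81 and 77 and *Rbp7* in 103 and 104.

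The immediate early and dissociation genes had a median ratio of 0.775 in arterial and 0.797 in other barcodes, and 0 of 15 passed 2-fold. In arterial barcodes 12 of the 15 were below 1, and the others were *Hspa1a* (1.73, 1.27 to 2.38), *Hspa1b* (1.09, 0.738 to 1.60), and *Dusp1* (1.03, 0.958 to 1.10). *Fos* stood at 3208 and 2533 CPM and *Egr1* at 1498 and 1015 CPM in arterial barcodes, and their part in the values of the genes above was not tested. *Ccl21a*, a lymphatic chemokine, had 142 and 51 UMIs, a ratio of 0.364 (0.259 to 0.504) beside 0.467. On the other side, under the minimum, lay *Lyve1* with 11 and 31 UMIs (2.85, 1.40 to 6.29). *Pdpn* lay there too, with 3 and 21 UMIs (7.09, 2.12 to 37.1). *Reln*, with 10 and 7 UMIs (0.709, 0.229 to 2.06), was also under the minimum but below 1. So was *Prox1*, which the gate limits, with 17 and 13 UMIs (0.774, 0.346 to 1.69). *Flt4* (0.881, 0.661 to 1.17) and *Mmrn1* (0.939, 0.6285 to 1.40), which were compared, were below 1 as well. The intervals of *Reln*, *Prox1*, *Flt4*, and *Mmrn1* included 1. *Ccl21a* was the 1 lower of 3 lymphatic genes compared, and it stood at 69.0 and 25.1 CPM in arterial barcodes, at 120 and 55.8 CPM in the other gate barcodes, and at 9600 and 5351 CPM in *Prox1* barcodes, where it was highest.

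**Figure D5:**
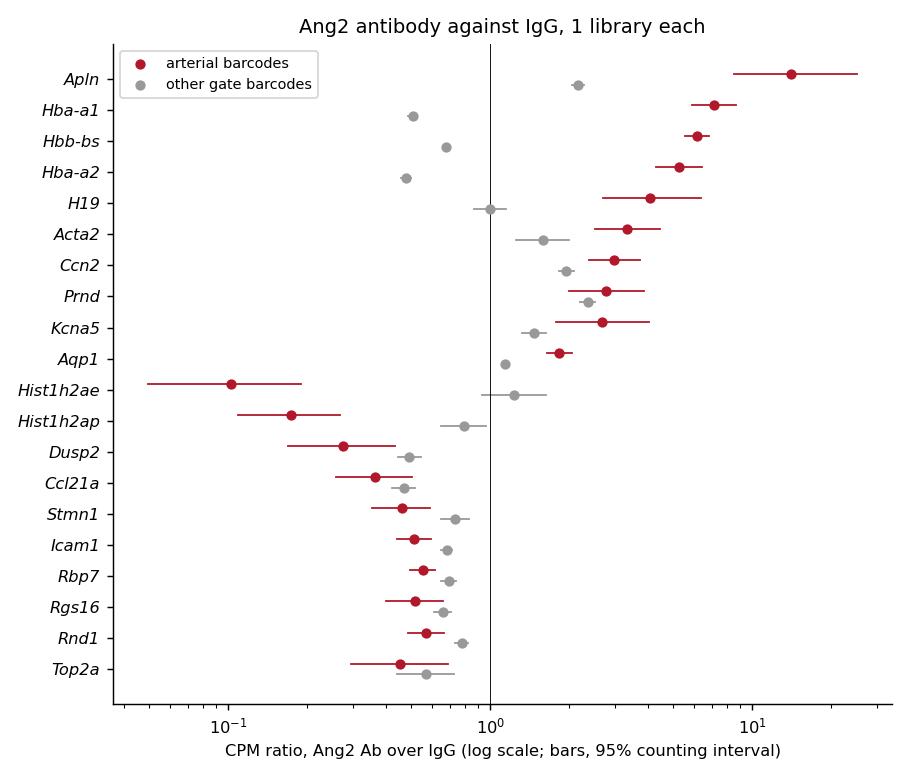
CPM ratio of Ang2 Ab to IgG (log scale, 1 library each) for the 10 genes with the highest lower bound and the 10 with the lowest upper bound in arterial barcodes, in arterial (red) and other gate barcodes (gray), with bars for the 95% counting interval. *Apln* lies farthest to the right (14.1), and the 3 hemoglobin genes and *Hist1h2ae* lie on opposite sides of 1 in the classes, as does *H19* (4.08 and 0.997).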

How the data were processed

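Filtered UMI counts per gene and barcode were used as deposited by the authors for the 2 droplet libraries, whose file header names Cell Ranger 6.0.2 (the submitters' processing notes name 2.1.1 and GRCm38/mm10). They are whole counts without normalization. Symbols listed more than once were summed (32285 features, 32245 symbols). No doublet caller was run.

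Counts were summed over the barcodes of a class and divided by their total (CPM). Ratios carry the exact conditional binomial interval and shares the Clopper-Pearson interval, both at 95%. A sum of 0 was set to a floor of 3 counts. With 1 library per group, no test was run, and a gene was called at a ratio of 2 or more, or 0.5 or less. The script for ratios and intervals was checked on simulated counts drawn without spread between barcodes, so the check does not cover such spread. Named genes are the rule genes, *Sox17*, the 20 highest (at least 50 arterial UMIs) and 10 lowest by the less extreme of the libraries' arterial ratios, and the 10 highest lower and 10 lowest upper bounds for Ang2 Ab, apart from *Xist*, Y-linked, ribosomal, and mitochondrial genes. Examples taken from the 24 gene lists and the *Gkn3* split are not covered by it, since they were picked with their values in view. The members and lists were chosen with earlier results of these data known. Thinning drew each barcode to 3000 UMIs without replacement. A result of the channel list is not reported here. Promoter windows are RefSeq's. Scripts ran in Python 3.11.15 with scipy 1.17.1 for intervals, numpy 2.4.6 and pandas 2.3.3 for tables, and matplotlib 3.10.9.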

Additional observations from a re-analysis of the deposited data

Results flagged for a closer look

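The ratio of Ang2 Ab to IgG pointed opposite ways in arterial and other gate barcodes for 3 hemoglobin genes, with 7.14 against 0.505 for *Hba-a1*, 6.14 against 0.679 for *Hbb-bs*, and 5.24 against 0.477 for *Hba-a2*. The same genes pointed opposite ways in arterial barcodes with *Xist* and with Y-linked RNA, with 15.8 against 0.531 for *Hba-a1*, 13.1 against 0.551 for *Hbb-bs*, and 13.4 against 0.428 for *Hba-a2*. One Ang2 Ab barcode held 91.5%, 92.6%, and 89.5% of the arterial UMIs of these genes.

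Between arterial barcodes with *Xist* and with Y-linked RNA, the ratio also pointed opposite ways for *Hist1h2ap* (4.77 and 0.0159) and *Top2a* (9.55 and 0.0528). Of the IgG UMIs, 1 barcode held 95.2% for *Hist1h2ap* and 81.6% for *Top2a*. None of these differences was tested, since each treatment had 1 library.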

How the results depend on the processing

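Each treatment had 1 library, so no replicate could be left out. No paired analysis was possible because each treatment has 1 droplet library. Of 26 recomputed shares 16 kept within the counting interval, and of 74 recomputed counts of genes 61 lay within 1.5 times the reported count. The cause of the shifts was not tested, apart from those that follow from fewer barcodes or genes.

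The arterial share of the gate (IgG and Ang2 Ab) was 18.4% and 19.3% at a rule sum of at least 2, 11.7% and 11.0% at 5, 10.4% and 10.1% after thinning, 6.05% and 5.99% for the rule without *Sema3g*, and 18.5% and 17.6% in barcodes with Y-linked RNA alone. Genes higher and lower in arterial barcodes numbered 373 and 478 at a gate minimum of 50 UMIs, 93 and 117 at 1000, and 144 and 150 in the Y-linked barcodes. Genes higher and lower with Ang2 Ab numbered 87 and 70 at an arterial minimum of 30 UMIs and 4 and 0 at 300. The lower ones numbered 5 without the top 5% of barcodes by UMIs and 19 in the Y-linked barcodes, and the higher ones 24 by the mean of each barcode's CPM.

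Of 1178 arterial ratios of named genes, 244 moved without changing side. Only 8 lay on the other side of 1, and the interval of 7 of them included 1. In the Y-linked barcodes of Ang2 Ab they were *Lgals7* (1.41), *Perp* (3.38), *Dmkn* (2.26), *Krt15* (1.504), and *Krt14* (1.13), of which *Perp*, *Krt15*, and *Krt14* had 0 arterial UMIs and were set at the floor of 3 counts, so that no change of direction was observed. *Dmkn* was at 1.09 with at most 5% mitochondrial UMIs. Of 360 Ang2 Ab ratios, 96 moved without changing side. A further 27 lay on the other side of 1, of which 12 had an interval that included 1. After thinning, *Hist1h2ae* was at 5.00, *Hist1h2ap* at 3.17, *Stmn1* at 1.03, and *Top2a* at 8.245. For the rule without *Sema3g*, *Hba-a1* was at 0.781, *Hbb-bs* at 0.634, *Hba-a2* at 0.520, *Hist1h2ae* at 2.28 (0 IgG UMIs, set at the floor), *Hist1h2ap* at 5.12, *Stmn1* at 2.16, and *Top2a* at 16.6. Without the top 5% of barcodes, *Hist1h2ae* was at 1.33 and *Hist1h2ap* at 1.14. In *Xist* barcodes, *Hist1h2ae* was at 2.73, *Hist1h2ap* at 4.77, *Stmn1* at 1.36, and *Top2a* at 9.55. In Y-linked barcodes, *Hba-a1* was at 0.531, *Hbb-bs* at 0.551, *Hba-a2* at 0.428, and *Prnd* at 0.740.

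Other alternatives were chosen after seeing the data. Against gate barcodes with capillary genes, *Sele* was at 4.96 in IgG, and against those with venous genes *Perp* was at 1.19 in Ang2 Ab. Without the barcode highest for each gene, *Hba-a1* was at 0.756, *Hbb-bs* at 0.662, *Hba-a2* at 0.695, *Hist1h2ae* at 1.61, *Hist1h2ap* at 1.44, and *Stmn1* at 1.03.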

Other observations

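Within the other gate barcodes, *Sox17* was unevenly spread. In IgG it stood at 328 CPM in barcodes with at least 3 UMIs of *Rgcc* and *Car4* and at 124 CPM in those with at least 3 of *Selp* and *Ackr1*. The ratio of arterial barcodes to the first was 1.99 in IgG and 1.96 in Ang2 Ab, and to the second 5.26 and 4.27. Among the arterial members, 55 IgG and 53 Ang2 Ab barcodes themselves held at least 3 UMIs of *Rgcc* and *Car4*, and 2 and 2 held at least 3 of *Selp* and *Ackr1*.

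The gate as a whole held 1405 of 3438 barcodes that passed the quality limits in IgG (40.9%) and 1503 of 2963 in Ang2 Ab (50.7%), and barcodes with at least 2 *Prox1* UMIs were 36.4% and 22.8%. These shares depend on the sort and on depth, and with 1 library per treatment the difference was not tested.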
